A study of Mus musculus with 139 samples.

Results

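The mitochondrial ribosomal protein genes are the nuclear genes, named Mrpl and Mrps, for the protein part of the ribosome inside mitochondria. Members were taken as every row of the raw count table whose gene identifier maps to a protein-coding symbol made of Mrpl or Mrps and a number, which gave 78 of 55335 rows. By name, 51 were counted in the large subunit and 27 in the small one, except that Mrps18a and Mrps30 were put in the large subunit on structural grounds. Mrps36, now placed in another complex, was kept in the small subunit by its name. Of the 78, 48 were listed as having a counterpart in the bacterial ribosome, and the other 30, Mrps36 among them, were taken as specific to mitochondria. The selection used names alone and no measured value.

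Mitochondrial ribosomes translate the few messenger RNAs encoded by mitochondrial DNA, whose products are core subunits of the respiratory chain and the ATP synthase. Their ribosomal RNAs come from the mitochondrial genome, while all their proteins are made in the cytosol from nuclear genes and imported, so both genomes supply parts of the same particle. Hair cells depend on mitochondrial ATP to restore ion gradients, and inherited defects of some of these proteins, among them MRPS2 and MRPS7, include sensorineural hearing loss in people.

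The data were single-cell RNA sequencing counts from mouse cochlear hair cells taken between postnatal days 14 and 16, each sample being 1 cell. Inner hair cells (IHCs) are the sensory cells that drive most auditory nerve fibres. Outer hair cells (OHCs) amplify the vibration that reaches the former. Groups were 34 apical, 34 middle and 19 basal IHCs, and 21 apical, 23 middle and 8 basal OHCs, the apex of the cochlear spiral being tuned to low and the base to high frequencies. The groups allow comparison of both cell types and of positions on the spiral. All cells were labelled cochlea of that age, with no treatment, strain or genotype among the labels. No label named an animal, so each group counted as 1 sample and cells were not replicates of a condition; no test between groups was possible, and every difference below is a description of these 6 pools of cells. The cell titles carry numbers that fall at or under 100 (81 cells) or above it (58 cells). The labels do not say what the number means, and values are given for each of these 2 series.

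Counts per cell ran from 71027 to 13576942 and the genes with a read from 681 to 27575. Levels are counts per 1000000 counts (CPM), after TMM scaling in pooled groups and without further scaling in single cells. The 5 IHC markers summed to between 6664 and 10178 CPM in the IHC groups and to between 2.69 and 223 CPM in the OHC groups, and the 6 OHC markers to between 5146 and 9249 CPM in OHCs and 72.1 to 894 CPM in IHCs. As a pool the basal OHCs stood apart. Of their OHC marker counts 90.5% came from 1 cell, their 7 general hair cell markers summed to 765 CPM against 1601 to 4757 CPM in the other groups, and their 9 blood and immune markers and 8 mesenchyme and bone markers reached 19537 and 20658 CPM, against at most 3421 and 4948 CPM elsewhere. Neuron and glia markers were at 12798 CPM there and at most 3677 CPM elsewhere. The part of these cells in the results below was not tested, and OHC against IHC values are therefore also given by region. Single cells of other groups also went against their label. In 7 cells the markers of the other hair cell type summed to at least those of the labelled type, 4 of them apical IHCs, 1 a middle IHC and 2 middle OHCs. Among the apical IHCs replicate 8 had 9.35 CPM of IHC and 13158 CPM of OHC markers, and replicate 18 had no IHC marker read. All 7 were kept in their labelled group. Without them, an alternative chosen after seeing the data, the members' median was -0.66 for OHCs against IHCs, and base against apex it was 0.04 in IHCs and -0.89 in OHCs, beside -0.63, 0.13 and -0.91 with them, and each of 45 ratios of named members moved by less than 1.5-fold. This repeat does not cover cells with few markers of either hair cell type. Low OHC markers were common among the lower-number middle OHCs. Middle OHC replicates 19 and 23 had 28.9 and 20.3 CPM of OHC markers, with 19456 and 25218 CPM of mesenchyme and bone markers. Replicates 8, 10, 13, 14, 15 and 17 had 77.4 to 265 CPM of OHC markers. Replicates 9, 11, 18, 20, 21 and 22 of that series had 415 to 13406 CPM, and the 7 higher-number middle OHCs 1593 to 13421 CPM. The part of these cells in the middle OHC values was not tested. Basal IHC replicates 13 and 18 had 297 and 282 CPM of IHC markers. Neuron and glia markers reached 17868 CPM in the former, and blood and immune markers 14665 CPM in the latter. A pair of apical IHCs, with 103101 and 3478864 counts, carry the same title number 17; the labels do not say if they are libraries of the same cell, they were counted as 2 cells, and the shallower is among the 7.

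The promoters of the members were examined first, because genes of 1 complex scattered over the genome can share sequence features. The 78 genes lay on 17 chromosomes, with 11 on chromosome 11 and 8 on chromosome 17. RefSeq promoter windows (GRCm38.p6, 250 bases before to 50 bases after the start) were matched by symbol for 69 members and searched on both strands for 7 motifs. The ETS letters CCGGAAG occurred in 34.8% of the members' windows and in 12.3% of all 16521 windows. The NRF1 letters GCGCATGCG occurred in 10.1% against 2.52%, and the YY1 letters AAGATGGCG in 11.6% against 2.03%. ETS factors, NRF1 and YY1 are known from textbook work as regulators of nuclear genes for mitochondrial proteins. The SP1 letters GGGCGG were found in 49.3% of the members' windows and 48.2% of all, the CRE letters TGACGTCA in 2.9% and 2.42%, the E-box CACGTG in 7.25% and 8.09%, and the TATA letters TATAAA in 5.8% and 12.9%. A match describes letters and not binding.

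The last 100 bases before the RefSeq start are shown for 7 members, written 5′ to 3′ on the gene's strand, with matches to the ETS, NRF1 or YY1 letters on either strand in capitals. The first 5 show ETS and NRF1 matches, but no YY1 match lies in these stretches. Mrpl12 and Mrpl42, the members whose levels are described most closely below, have no ETS, NRF1 or YY1 letters in theirs. Mrpl42 has YY1 letters elsewhere in its window.
Mrpl22 (chr11:58171564-58171663, plus strand): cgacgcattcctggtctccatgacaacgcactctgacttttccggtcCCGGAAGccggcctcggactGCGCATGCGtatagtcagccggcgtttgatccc
Mrpl17 (chr7:105811088-105811187, minus strand): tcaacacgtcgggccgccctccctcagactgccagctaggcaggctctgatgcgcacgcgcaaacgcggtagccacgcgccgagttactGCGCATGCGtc
Mrpl9 (chr3:94443236-94443335, plus strand): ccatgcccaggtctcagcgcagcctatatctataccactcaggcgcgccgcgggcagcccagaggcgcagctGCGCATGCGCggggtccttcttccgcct
Mrpl43 (chr19:45006443-45006542, minus strand): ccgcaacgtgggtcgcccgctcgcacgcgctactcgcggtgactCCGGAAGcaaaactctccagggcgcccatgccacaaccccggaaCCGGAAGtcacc
Mrps22 (chr9:98601680-98601779, minus strand): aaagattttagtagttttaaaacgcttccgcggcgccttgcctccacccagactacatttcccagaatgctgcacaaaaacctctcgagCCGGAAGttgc
Mrpl12 (chr11:120484537-120484636, plus strand): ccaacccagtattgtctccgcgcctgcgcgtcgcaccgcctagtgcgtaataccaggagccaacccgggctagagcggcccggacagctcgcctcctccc
Mrpl42 (chr10:95501950-95502049, minus strand): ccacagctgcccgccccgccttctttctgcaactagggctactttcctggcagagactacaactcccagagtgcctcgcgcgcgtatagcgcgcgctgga
In Mrpl22 an ETS and an NRF1 match stand within the same stretch, in Mrpl43 there are 2 ETS matches, and in Mrpl9 matches on both strands overlap in 1 palindrome.

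Members also often began beside another gene. In the GENCODE M21 annotation, 33 of 78 members (42.3%) had the start of a protein-coding gene on the opposite strand within 1000 bases, against 10.8% of 22028 coding genes. Several of these neighbours serve mitochondria too. Mrpl36 starts 29 bases from Ndufs6 and Mrpl47 615 bases from Ndufb5, both subunits of respiratory complex I, Mrps12 starts 172 bases from Sars2, the mitochondrial seryl-tRNA synthetase, and Mrpl43 779 bases from Twnk, the mitochondrial DNA helicase. Mrpl46 and Mrps11 start 412 bases apart and are members of the 2 subunits. In this annotation 28 members share exonic bases with a gene on the opposite strand and 8 with a gene on the same strand; the labels do not say if strand was used in counting, so reads over shared bases may have been lost or split.

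The members together made up a small share of the counts. Pooled, they held 0.0922% of the counts of apical IHCs, 0.140% of middle and 0.141% of basal IHCs, 0.154% of apical, 0.103% of middle and 0.260% of basal OHCs. After scaling, the summed level from apex to base was 886, 1267 and 1466 CPM in IHCs and 1570, 789 and 3703 CPM in OHCs. Basal OHCs were highest and middle OHCs lowest. Of the basal OHC counts 43.2% came from 1 cell, against 8% to 22.9% in the other groups. Counting error is small beside these differences, since the 95% Poisson interval of the lowest sum ran from 784 to 794 CPM, but it covers counting error only.

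The order of the groups changed between the 2 number series. Each series was scaled on its own, so a pooled sum can lie outside those of both series. In the lower-number cells the sums in the same order were 655, 1970 and 1991 CPM in IHCs and 771, 438 and 3038 CPM in OHCs. In the higher-number cells they were 1255, 1053 and 995 CPM in IHCs and 2020, 1035 and 560 CPM in OHCs. Basal groups were thus the highest of each type in the lower-number cells and the lowest of each type in the higher-number cells. The basal OHCs of the higher series were 2 cells, 1 of which held 94.9% of their counts.

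Single cells spread more widely than the pools differed. The members' summed level ran from 0 to 8012 CPM, with a median of 908 CPM over all cells. By group the lowest, median and highest cells were 8.85, 620 and 3060 CPM in apical IHCs, 4.11, 1445 and 5102 CPM in middle IHCs, and 215, 846 and 4454 CPM in basal IHCs. In apical OHCs they were 48.4, 1222 and 2724 CPM, in middle OHCs 0, 407 and 1852 CPM, and in basal OHCs 29.8, 1046 and 8012 CPM. The 6 ranges overlap one another, and the order of the medians is not that of the pooled sums: middle IHCs had the highest median cell and middle OHCs the lowest. The highest middle IHC and the lowest middle OHC are among the 7 cells with markers against their label.

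**Figure D1:**
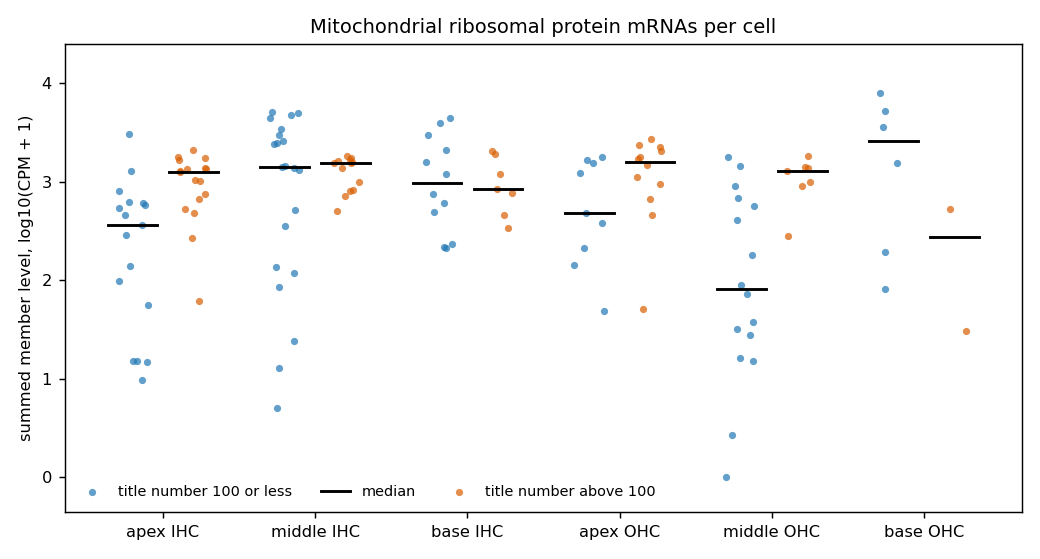
Summed level of the 78 members in each cell, as log10(CPM + 1), by group and by title-number series; each point is 1 cell and black bars are medians. The lower-number cells reach from 0 to 8012 CPM, and the higher-number cells from 29.8 to 2724 CPM.

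A typical cell showed reads for a minority of the members. The number of members with a read ran from 0 to 59 per cell, with a median of 20 of 78. The member with the most counts held a median of 49.6% of a cell's member counts. In the lower-number cells that share was 65.7% and in the higher-number cells 25.6%. Across the 138 cells with a member read, 53 different members took the lead, most often Mrpl57 (14 cells), Mrpl45 (11 cells) and Mrpl42 (7 cells). The large subunit reached a median of 602 CPM per cell and the small subunit 104.2 CPM.

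The 2 series also differed in how many members were seen. The median was 17 members in lower-number cells and 27.5 in higher-number cells, with median totals of 3186040 and 7187430 counts. After every cell was thinned to 582635 counts, which left 69 and 56 cells, the medians were 8 and 21.5 members. The number of all genes with a read differed in the same direction, with medians of 2944 and 5126.5 genes in the thinned cells.

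**Figure D2:**
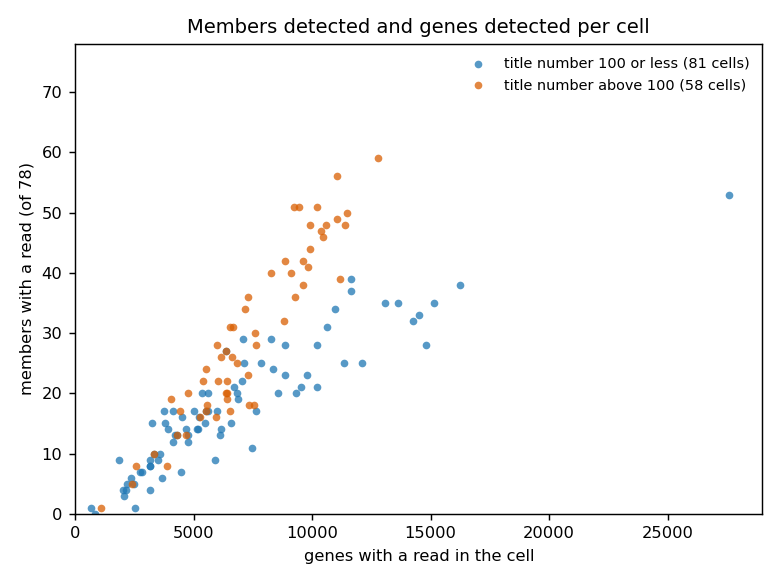
Number of members with a read (y axis) against the number of genes with a read (x axis) in each cell, coloured by title-number series. The points rise together (r = 0.796 over all cells), and the highest number of members is 53 in the lower and 59 in the higher series.

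Cells with more genes showed more members. Over the 87 IHCs and 52 OHCs together the number of members with a read and the number of genes with a read had a Pearson r of 0.796 and a Spearman rho of 0.891, and r was 0.908 in the lower and 0.936 in the higher series. Both numbers come from the same library and its depth, which had an r of 0.643 with the members detected. For Pearson r, total counts and summed levels were taken as log2 values, and numbers of members or genes as counted. The summed level of the members followed the number of genes less closely, with an r of 0.295 and a rho of 0.236. It had an r of 0.168 with the summed level of cytosolic ribosomal proteins, 0.305 with that of the nuclear genes of the respiratory chain and 0.356 with that of the mitochondrially encoded messengers. These are descriptions across cells that share library and depth, and the weak ones show no finding.

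Each member's pooled level rested on few cells. A member had a read in a median of 40 cells, and 3 had one in more than 50% of them: Mrpl12 in 77 cells, Mrpl33 in 74 and Mrps35 in 70. Among 444 pairs of a member and a group with counts, 1 cell held more than 50% of the counts in 310 pairs (69.8%) and more than 90% in 26.4% of them. The median share of the leading cell was 54.3%, 49.8% and 71.3% in apical, middle and basal IHCs, and 81.6%, 59.5% and 94.0% in the OHCs. In basal OHCs 14 members had no count, against 1 to 4 in the other groups, and 9 members had a median cell above 0. That pool was the shallowest, with 28574809 counts from 8 cells, against 94869815 to 199944360 counts in the others. None of the numbers in this paragraph was taken over all features, and the part of depth was not tested.

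The highest members per kilobase of exon, averaged over the 6 groups, were Mrpl18 at 191, Mrpl45 at 52.6, Mrpl28 at 46.6, Mrpl57 at 36.3 and Mrps36 at 32.6 CPM per kb. Mrpl45 lies near the exit of the peptide tunnel and helps hold the ribosome at the inner membrane. Mrps36, although named as a ribosomal protein, is now placed in the 2-oxoglutarate dehydrogenase complex. The mean of Mrpl18 came mainly from basal OHCs at 1403 CPM. It was at 133 and 18.9 CPM in apical and middle OHCs, and at 10.1, 15.4 and 23.3 CPM in apical, middle and basal IHCs. In basal OHCs all of its reads came from 1 cell with 3190 CPM, and the other 7 cells had none. Likewise 96.5% of the Mrps36 counts in basal IHCs, its highest group at 184 CPM, came from 1 cell.

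**Figure D3:**
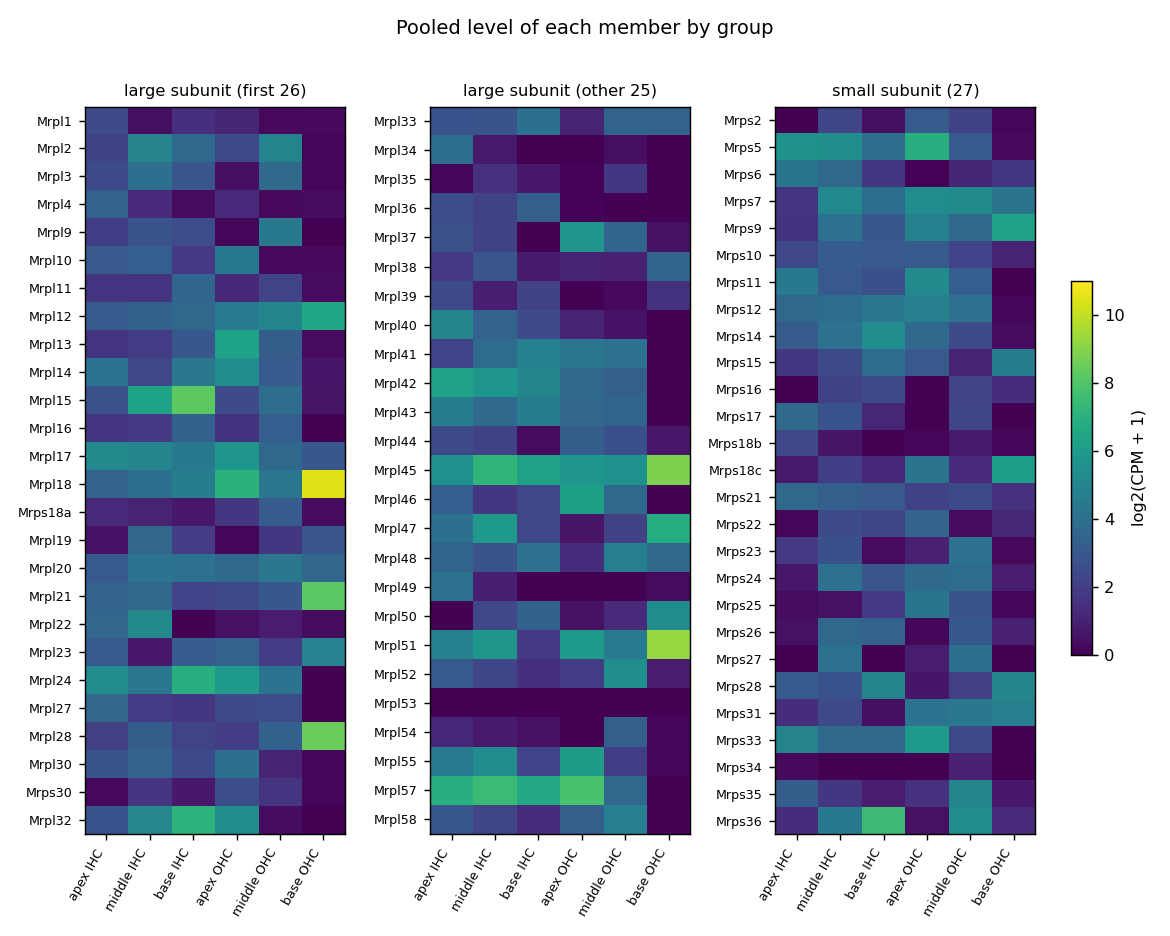
Pooled level of each of the 78 members in the 6 groups as log2(CPM + 1), with large subunit members in the first 2 panels and small subunit members in the third. Mrpl53 is dark in every group, and the basal OHC columns hold both the brightest cell (Mrpl18, 1403 CPM) and most of the dark ones.

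The lowest members per kilobase were Mrpl53, Mrps34, Mrpl35, Mrps30 and Mrpl1. Mrpl53 had 0 counts in every cell, of 705244075 counts in all. For reads assigned to it alone, this allows at most 0.00425 CPM over all cells. Of its exonic bases 88.0% are shared with Gm42688, an annotated protein-coding gene on the same strand. Mrps34, with reads in 7 cells and at most 0.999 CPM in any group, shares 36.97% of its exonic bases with Nme3 on the same strand and 63.4% with Mapk8ip3 on the other. Mrps25 shares 69.8% with Nr2c2 on the opposite strand and was at 0.0996 to 18.6 CPM. The part of shared bases in these low counts was not tested. Mrpl35 and Mrps18b had averages of 0.894 and 0.942 CPM over the groups. Of 5 annotated pseudogenes of members in the table, Mrps36-ps1 reached 14.9 CPM in basal OHCs, where Mrps36 itself was at 1.59 CPM, and reads of such copies may be divided between them; the other 4 had means under 1 CPM. These 4 members, Mrpl35, Mrpl53, Mrps18b and Mrps34, stayed under the minimum mean of 1 CPM, and 74 members were compared between groups.

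The 3 relatives of bacterial S18 show how unlike related members were. Mrps18a, which sits in the large subunit, was at 0.299 to 8.3 CPM, highest in middle OHCs. Mrps18b was highest in apical IHCs at 4.21 CPM, had no count in basal IHCs, and 98.1% of the apical counts came from 1 cell. Mrps18c was at 0.749, 3.1 and 1.36 CPM along the IHCs and at 18, 1.52 and 71.01 CPM along the OHCs, apex first, where in the base a single cell held every read.

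Between OHCs and IHCs the members differed about as much as all features did. For each feature the log2 ratio of (CPM + 1) was taken in each region and averaged over the 3 regions, and a feature past 2-fold was counted; the ratio understates differences of low genes. The median of the 74 members was -0.63, against -0.56 over the 15717 features past the same minimum level. Of the members 13 were 2-fold or more higher in OHCs (17.6%, against 16.7% of all features) and 28 lower (37.8%, against 38.8%). With members at 0 counts set to the limit of 3 counts over the group the median was -0.72. Without the basal groups, an alternative chosen after seeing the data, it was -0.10, with -0.14 for all features.

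The regions differed. In the apex the members' median was 0.35, against -0.03 for all features, with 25 members higher (27.9% of all features) and 23 lower (32.4% of all features). In the middle it was -0.24 against -0.08, with 16 higher (20.5% of all features) and 24 lower (29.9%). In the base it was -1.11 against -0.85, with 14 higher (15.8%) and 38 lower (48.5%). The apical median was -0.09 in lower-number and -0.01 in higher-number cells, beside -0.07 and -0.02 for all features. The positive pooled value was thus in neither series, but each series was scaled on its own. The scaling factors of apical IHCs and OHCs were 0.79 and 1.39 in the lower series. In the pool they were 1.04 and 0.98, so a pooled value can lie outside those of both series. The small subunit had a median of 0.85 in the apex, with 12 of 25 members higher, and the large subunit -0.02, with 13 of 49 higher; within the series the small subunit was at -0.04 and 0.48. Members with a bacterial counterpart had a median of -0.83 over the 3 regions, with -0.52 in the lower and -1.15 in the higher series. Those specific to mitochondria had 0.20 in the pool, with -0.22 and -0.43 in the series.

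**Figure D4:**
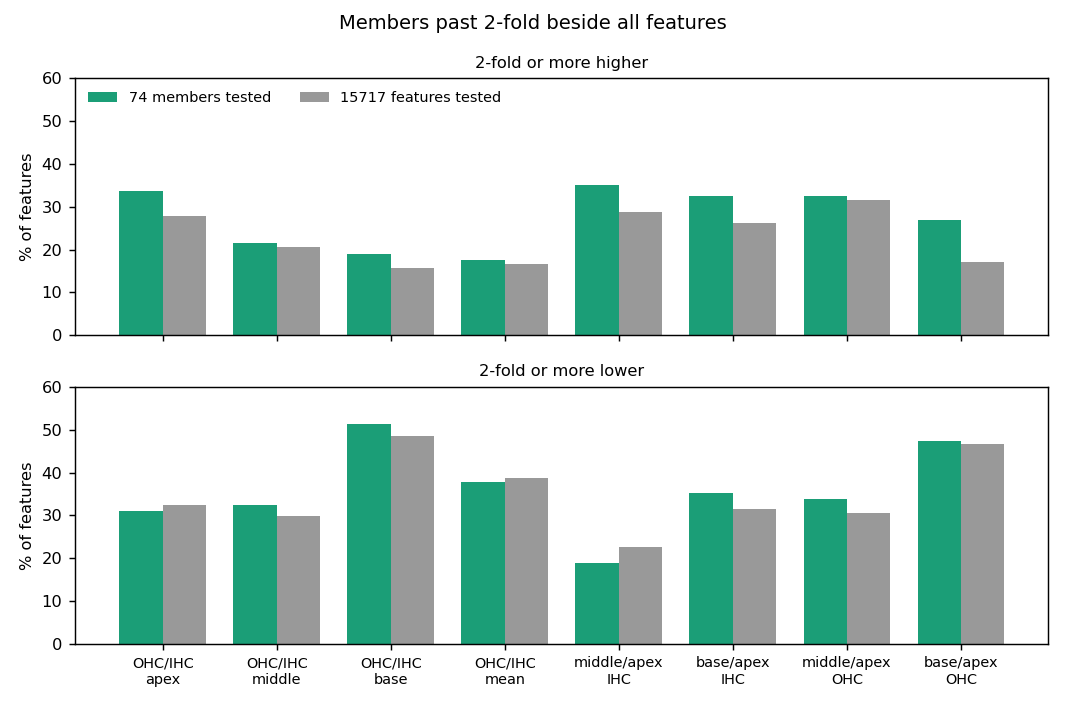
Share of the 74 members (green) and of all 15717 features (grey) that were 2-fold or more higher (upper panel) or lower (lower panel) in 8 comparisons, in percent. The green and grey bars lie close together in most comparisons, and the widest gap is for features higher in basal than apical OHCs (27% against 17.1%).

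In all 3 regions 2 members were 2-fold or more higher in OHCs, Mrpl12 and Mrps31, which is 2.7% of 74 against 1.2% of all features. Mrpl12 is the protein of the stalk that recruits translation factors and has also been found with the mitochondrial RNA polymerase. From apex to base its pooled level was 8.15, 9.32 and 11.8 CPM in IHCs and 22.1, 32.3 and 86.4 CPM in OHCs. The lowest, median and highest cells were 0, 0 and 75.9 CPM in apical, 0, 0.492 and 57.2 CPM in middle and 0, 3.18 and 63 CPM in basal IHCs. In OHCs they were 0, 0.256 and 280.5 CPM in the apex, 0, 0 and 126 CPM in the middle and 0, 28.95 and 260.3 CPM in the base. The ranges overlapped in every region, and only in the base was the median cell of the OHCs plainly above that of the IHCs. The log2 ratios were 1.34, 1.69 and 2.77. In the lower-number cells they were -0.46, 2.74 and 2.57, and in the higher-number cells 1.15, 1.5 and -3.86, the last from 2 basal OHCs with no Mrpl12 read; the mean over regions turned to -0.40 in that series.

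Mrps31, a small subunit protein specific to mitochondria, was at 1.74, 4.3 and 0.357 CPM in IHCs and 17.5, 19.6 and 26.9 CPM in OHCs. Its apical OHC level came from 1 cell of 21 with 129 CPM, and in the base 1 cell with 217 CPM held 99.8% of the counts. In middle OHCs 11 of 23 cells had a read, with up to 85.7 CPM, against 8 of 34 middle IHCs with up to 40.8 CPM. The mean log2 ratio was 3.94 in the higher-number and -0.01 in the lower-number cells, and 1.52 without cells of 10% or more mitochondrial counts. Mrps31 was then not past 2-fold in all 3 regions, nor without the deepest cell of each group.

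Lower in OHCs in all 3 regions were Mrpl36, Mrpl40 and Mrpl42, which is 4.05% of 74 against 7.14% of all features. Mrpl42, a large subunit protein specific to mitochondria, was at 76.6, 54.6 and 32.4 CPM in apical, middle and basal IHCs and at 12.3, 9.05 and 0.0498 CPM in the OHCs, the last being 1 count. Reads were seen in 14 of 34, 16 of 34 and 10 of 19 IHCs, with highest cells of 1318, 450 and 358 CPM. They were seen in 8 of 21, 8 of 23 and 1 of 8 OHCs, with highest cells of 325, 54.98 and 0.506 CPM. The cells with most Mrpl42 were IHCs, but most cells of either type had little or none. In the apex the lower-number cells went the other way, with a log2 ratio of 3.83, against -3.30 in the higher-number cells.

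Mrpl40, another large subunit protein specific to mitochondria, was at 30.8, 10.1 and 4.66 CPM in IHCs and at 1.12, 0.467 and 0 CPM in OHCs. The highest IHC was at 1334 CPM and the highest OHC at 5.38 CPM, although 14 of 52 OHCs had a read against 34 of 87 IHCs. With 3 counts as the limit in the basal OHC pool, Mrpl40 was at least 31.2-fold lower there than in basal IHCs. This limit covers counting error only and not the spread between cells. Mrpl36, the counterpart of bacterial L36, was at 5.32, 3.36 and 9.19 CPM in IHCs and at most 0.0696 CPM in OHCs, but in each IHC group 1 cell held 85.5% to 99.3% of its counts, and 19 cells had a read at all. The mean log2 ratio in the lower and higher series was -2.12 and -3.44 for Mrpl40 and -0.15 and -3.45 for Mrpl36. In the lower series that of Mrpl40 came from the apex, at -6.08, with 0.0018 in the middle and -0.29 in the base. None of the 5 members named for all 3 regions passed 2-fold in all 3 in the lower-number cells alone; in the higher-number cells alone 4 did, without Mrpl12. Mrpl36 did not without the deepest cell of each group, nor Mrpl42 with cells thinned to 1 depth.

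Of the 4 members with the highest and the 4 with the lowest ratio between the types, 5 had over 96% of the counts of their highest group in 1 cell (Mrpl18, Mrps31, Mrps18c, Mrpl51 and Mrpl15), while Mrpl42, Mrpl40 and Mrpl57 had 55.9%, 44.4% and 30.3%. Highest in OHCs were Mrpl18 (3.24), Mrps31 (3.02), Mrps18c (2.56) and Mrpl51 (2.39). Mrpl51, a large subunit protein specific to mitochondria, was at 604 CPM in basal OHCs, where 96.2% of its counts came from 1 cell, and at 2.57 CPM in basal IHCs. Lowest in OHCs were Mrpl15 (-3.43), Mrpl42 (-3.33), Mrpl57 (-3.19) and Mrpl40 (-3.11). Mrpl15, the counterpart of bacterial L15, was at 303 CPM in basal IHCs, with 97.4% from 1 cell, and at 0.498 CPM in basal OHCs. Mrpl57 was at 123, 181 and 98.3 CPM in IHCs and at 230, 11.7 and 0 CPM in OHCs, so it was higher in OHCs in the apex and lower elsewhere, and it led the member counts in more cells than any other member.

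In IHCs about as many members were higher as lower in the base against the apex. In the middle against the apex more were higher than lower, among the members and among all features. Base against apex the members' median was 0.13, against -0.03 for all features, with 24 of 74 members 2-fold or more higher (26.3% of all features) and 26 lower (31.4% of all features). The middle against the apex gave 0.25 against 0.06, with 26 higher (28.9%) and 14 lower (22.6%). In the lower and higher series the middle against apex median was 0.11 and -0.01, against 0.02 and 0 for all features. The base against apex median was 0.03 in the lower and -0.10 in the higher series, against 0 and -0.03 for all features. The small subunit had a median of 0.63, with 0.12 and 0.42 in the series, and the large subunit -0.31, with 0.02 and -0.58.

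Past 2-fold in the pool and in both series, 6 members were higher in basal IHCs (8.11% of 74, against 4.92% of all features): Mrpl18, Mrpl32, Mrps9, Mrps14, Mrps16 and Mrps24. Mrpl32, whose maturation by the mitochondrial m-AAA protease is a step of ribosome assembly, was at 5.88, 32.9 and 138 CPM from apex to base. Its lowest, median and highest cells were 0, 0 and 85.5 CPM in the apex, 0, 0.0676 and 4924 CPM in the middle and 0, 0.147 and 3371 CPM in the base, so the median cell hardly moved. Mrps14, the counterpart of bacterial S14, was at 7.7, 16.4 and 40.03 CPM. Mrps24 was at 0.614, 16.5 and 6.77 CPM, with reads in 3 of 34, 15 of 34 and 9 of 19 cells, and Mrps16 at 0.027, 3.52 and 4.92 CPM, with reads in 2 of 34, 9 of 34 and 6 of 19 cells. For these 2 both the level and the share of cells with a read were lowest in the apex. Mrps24 shares 15.4% of its exonic bases with Urgcp on the same strand.

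By the same rule 5 members were lower in basal IHCs (6.76%, against 8.96% of all features): Mrpl27, Mrpl40, Mrpl51, Mrps6 and Mrps17. Mrps6, the counterpart of bacterial S6, was at 18.7, 12.1 and 2.46 CPM from apex to base. Reads were seen in 17 of 34, 23 of 34 and 13 of 19 of the cells, with highest cells of 191, 104.1 and 71.1 CPM, so a larger share of basal than apical cells had a read but none was as high. Mrps6 shares 19.9% of its exonic bases with Gm49711 and 10.4% with Slc5a3 on the same strand. Mrps17 was at 12.8, 5.79 and 1.24 CPM and Mrpl27 at 11.6, 2.74 and 2.37 CPM.

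Without the 7 cells with markers against their label, Mrpl18 was just under 2-fold higher in the base, at 0.98 in the log2 ratio, and the other 10 members of both lists stayed past it. With all cells Mrps36 (6.14), Mrpl15 (5.51), Mrpl32 (4.34) and Mrpl50 (3.34) had the highest log2 ratios, and Mrpl49 (-4.07), Mrpl34 (-3.98), Mrpl22 (-3.57) and Mrpl4 (-3.17) the lowest. Mrpl22, shown above with its ETS and NRF1 letters, had all of its apical counts in 1 of 34 cells, at 11.2 CPM in the pool, and was at 35.2 CPM in the middle and 0.0304 CPM in the base.

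In OHCs the base lay below the apex for the members and for all features alike. The median was -0.91, or -0.95 with members at 0 set to their limit, against -0.65 for all features. Of the members 20 were 2-fold or more higher (27%, against 17.1% of all features) and 35 lower (47.3%, against 46.7%). In the lower series the median was 0.06, against 0 for all features. In the higher series, with its 2 basal cells, it was -2.48, against -1.44 for all features. Middle against apex gave -0.09 against 0.01, with 24 higher (31.6% of all features) and 25 lower (30.6%).

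The 8 basal OHCs show what such a pool consists of. Their members' summed levels were 29.8 and 525.9 CPM in the 2 higher-number cells and 81.0, 192, 1566, 3639, 5194 and 8012 CPM in the 6 lower-number cells. The leading member differed between nearly all of them. It was Mrps14 in the cell at 29.8 CPM, Mrps31 in that at 525.9 CPM, Mrpl12 in the cells at 81.0 and 192 CPM, Mrpl21 in that at 1566 CPM, Mrpl18 in that at 3639 CPM, Mrpl45 in that at 5194 CPM and Mrpl51 in that at 8012 CPM. These leading members held 41.3% to 100% of the member counts of their cell. In the same 8 cells the OHC markers ran from 12.3 to 13397 CPM, and the cell led by Mrpl18 was the highest.

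Past 2-fold in the pool and both series, 4 members were higher in basal OHCs (5.41% of 74, against 3.02% of all features), Mrpl33, Mrpl38, Mrpl50 and Mrps28. Both basal OHCs of the higher series had over 10% of their counts in mitochondrial genes (16.9% and 14.8%). Without cells above that limit no higher-series basal OHC is left, and Mrpl33 was at 0.88 in the log2 ratio instead of 2.44, under 2-fold, while the other 3 stayed past it. Mrpl33, the counterpart of bacterial L33 and read in more cells than any member but Mrpl12, was at 1.07, 10.4 and 10.3 CPM from apex to base, with reads in 10 of 21, 11 of 23 and 6 of 8 cells. Mrpl50 was at 0.418, 1.55 and 39.9 CPM, with reads in 2 of 21, 6 of 23 and 5 of 8 cells. The other 2 had a read in 2 of 8 basal cells each. Lower were 7 members (9.46%, against 9.12% of all features), Mrpl10, Mrpl15, Mrpl42, Mrpl43, Mrpl57, Mrps11 and Mrps14. Mrpl57 and Mrpl43, at 230 and 11.6 CPM in the apex, had no basal read. With 3 counts as the limit, they were at least 1536-fold and 77.4-fold lower in the basal pool. That limit covers counting error only and not the spread between the 8 basal cells. The paired neighbours Mrpl46 and Mrps11, at 75.5 and 35.95 CPM in apical OHCs, each had reads in 3 of 21 apical cells and in none of the 8 basal cells.

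The extremes of basal against apical OHCs were Mrpl28 (6.49), Mrpl47 (6.22), Mrpl21 (5.66) and Mrpl50 (4.85) on the higher side and Mrpl57 (-7.85), Mrps5 (-6.67), Mrpl46 (-6.26) and Mrpl13 (-6.04) on the lower side, in log2 ratios. Mrpl28 and Mrpl47 were at 357 and 111.9 CPM in the basal pool, and in both 1 cell held 99.96% of these counts. Both, and Mrpl21, were lower in the base in the higher-number cells, at -2.35, -0.77 and -1.41. Mrps5, the counterpart of bacterial S5, was at 121 CPM in apical OHCs with 60% from 1 cell, and at 0.199 CPM in the base, but at 0.061 in the log2 ratio of the lower-number cells.

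Other members of known role spread over the groups in the same uneven way. Mrps12, the protein of the decoding centre, was at 12.2, 13.7 and 19.4 CPM in IHCs and 26.9, 16.6 and 0.0996 CPM in OHCs. Mrps7 was at 2.12, 33.8 and 14.5 CPM in IHCs and 39.7, 36.5 and 17.7 CPM in OHCs, and Mrps2 at 0.0202, 3.96 and 0.365 CPM and 7.63, 3.38 and 0.149 CPM. Mrpl3, the counterpart of bacterial L3, was at 4.46, 15.5 and 6.62 CPM in IHCs and 0.358, 12.9 and 0.0996 CPM in OHCs. Mrps22, shown above with its ETS letters, was at 0.108 to 10.2 CPM, and Mrpl41, specific to mitochondria, at 0 to 27.6 CPM. Mrpl44, which has an RNase III fold, was at 0.243 to 8.34 CPM, and Mrpl58, a peptidyl-tRNA hydrolase that rescues stalled ribosomes, at 0.0498 to 25.6 CPM. The basal OHCs held the lowest value of the 6 groups for 36 members and the highest for 15, and the apical OHCs the highest for 19. Basal OHCs were also the shallowest pool, and these numbers were not taken over all features.

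Genes that act with the mitochondrial ribosome were read from lists. Of 5 further mitoribosomal proteins with other names (Dap3, Ptcd3, Aurkaip1, Chchd1 and Gadd45gip1), all 5 were 2-fold or more lower in basal OHCs than in basal IHCs and all 5 were higher in middle OHCs than in middle IHCs, beside 48.5% of all features lower in the base and 20.5% higher in the middle. The middle median was 1.6 in the pool but -1.31 in the lower-number cells, and the basal median was -5.86 in the pool, -6.56 in the lower and -4.11 in the higher series. Their sum was 203, 56.1 and 326 CPM in IHCs and 160, 190 and 0.747 CPM in OHCs. Of 18 translation factors 14 passed the minimum level; over the 3 regions 1 (7.14%) was 2-fold or more higher in OHCs and 6 (42.9%) were lower, beside 16.7% and 38.8% of all features, and the median was -0.64 beside -0.56. Their sum in OHCs was 338, 100.6 and 40.6 CPM from apex to base. Among them Gfm2, a factor that acts in ribosome recycling, was at 22.8, 14.3 and 15.4 CPM in IHCs and 0.0796, 1.37 and 0.249 CPM in OHCs. Of 20 assembly factors 18 were compared, with 4 higher (22.2%, beside 16.7% of all features) and 5 lower (27.8%, beside 38.8%) in OHCs and a median of -0.26.

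Of 19 mitochondrial aminoacyl-tRNA synthetases 16 were compared, with 2 higher (12.5%, beside 16.7% of all features) and 4 lower (25%, beside 38.8%) in OHCs and a median of -0.21. Their sum, 1006 to 7704 CPM, was mostly Lars2, which alone was at 7455 CPM in basal OHCs; without it the sum ran from 249 to 454 CPM. Of 7 genes of mitochondrial transcription 4 were compared, and all 4 (Polrmt, Tfam, Tfb2m and Tefm) were 2-fold or more lower in OHCs on the mean of the regions, beside 38.8% of all features, with a median of -2.05. Polrmt, the mitochondrial RNA polymerase, was however higher in apical OHCs, at 28.9 CPM against 5.59 CPM in apical IHCs, and Tfam, which packs mitochondrial DNA and starts its transcription, in middle OHCs, at 16.3 CPM against 6.5 CPM in middle IHCs.

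Other ribosomal and respiratory genes had other values. Of 83 cytosolic ribosomal proteins 79 were compared, with 29 higher (36.7%, beside 16.7% of all features) and 5 lower (6.33%, beside 38.8%) in OHCs. Their median over the regions was 0.73, with -0.60 in the lower and 0.59 in the higher series. All features were at -0.56 in the pool and at -0.20 and -0.81 in the series. Of 96 nuclear genes of the respiratory chain 89 were compared, with 8 higher (8.99%, beside 16.7% of all features) and 19 lower (21.3%, beside 38.8%). Their median was 0.03 in the pool but -0.50 in the lower and -0.26 in the higher series. The 11 compared messengers of the mitochondrial genome had a median of 0.72, with 0.19 and 1 in the series. The summed level of the latter was 17738, 16225 and 17244 CPM in IHCs and 25831, 28360 and 25068 CPM in OHCs from apex to base. None of the differences between these sets and the members was tested.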

How the data were processed

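Single-cell libraries were read on a HiSeq 2500, per the labels. The deposited table held raw read counts per gene, 1 column per cell; the authors used Trimmomatic, HISAT2 and featureCounts (Subread 1.4.6) with the mm10/GRCm38 build, per the submitters' processing notes. Strand and multi-mapping settings are not stated there.

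Identifiers were matched to GENCODE M21 for 55154 of 55335 rows, 54587 with their version; the 181 rows without a symbol held 0.00885% of the counts. Counts were summed per group and scaled by TMM (edgeR 4.0.16), separately for the pool, each title-number series and each other set of cells. Ratios are log2 of (CPM + 1), over features with a mean of at least 1 CPM over the 6 groups, and 2-fold was the size counted. The arithmetic was tested on simulated data. No test was run, because no label names an animal. Where a group had 0 counts, folds used a limit of 3 counts over the group. Poisson intervals are at 95%. Both these intervals and the limit of 3 counts cover counting error only. For detection, cells were thinned to 582635 counts, percentile 10 of all totals, leaving 125 cells.

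Named members were the extremes of each comparison and of the level per kilobase, those past 2-fold in all regions or both series, those read in most and fewest cells, those under the minimum, and some of known role. Members and lists were chosen with earlier results of these data known. Alternatives covered scaling, filter, pseudocount, weight per cell, deepest cells, title numbers, cells with at least 10% mitochondrial counts, and depth. Added after seeing the data were the mean without the basal groups and a repeat without cells whose markers went against their label.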

Additional observations from a re-analysis of the deposited data

How the results depend on the processing

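No paired analysis was possible because no label ties cells of different groups to 1 animal and no result comes from a test. The members' median for OHCs against IHCs lay between -1.01 and -0.10 under every alternative (-0.63 as reported), and that for basal against apical IHCs between -0.10 and 0.25. RLE scaling moved the median of all features for OHCs against IHCs from -0.56 to -0.25, with -0.31 for the members and 14 members higher and 19 lower; a pseudocount of 5 CPM gave 10 higher and 12 lower. For basal against apical OHCs (-0.91) a pseudocount of 0.1 CPM gave -1.98, one of 5 CPM -0.28, title numbers of 100 or less 0.059 and those above 100 -2.48. In these 2 series all features were at 0 and -1.44. The cause was not tested.

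Of 315 values of 45 named results, 204 moved by under 1.5-fold, 99 moved further and 12 reversed. Members named for passing 2-fold base against apex in both title-number series could not reverse in either series. For them the tally of the series is no measure of stability. With title numbers above 100 the reversed values were -0.40 for Mrpl12 and -0.21 for Mrpl18 (OHC against IHC), -1.41 for Mrpl21, -2.35 for Mrpl28 and -0.77 for Mrpl47 (basal against apical OHCs), and -1.83 for Mrps36 (basal against apical IHCs). With numbers of 100 or less they were -0.85 for Mrpl51 and -0.011 for Mrps31 (OHC against IHC), 0.021 for Mrpl22 and 0.41 for Mrpl4 (IHCs), and 0.061 for Mrps5 (OHCs). Without the deepest cell of each group Mrpl18 was at -0.23. With cells thinned to 1 depth 28 of the 45 moved by under 1.5-fold and 17 further; without cells whose markers went against their label none moved further.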
